A study of Mus musculus with 4 samples.

Results

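Microglia are the resident macrophages of the brain. The nuclei described here are those that the authors' deposited annotation calls Micro and whose barcodes are in the deposited matrix, 442 of 36523 annotated nuclei (1.21%). They come from droplet-based single-nucleus RNA sequencing (10x 3' libraries) of mediobasal hypothalamus, where the arcuate nucleus lies, from wild-type mice with free access to chow. Mice had received insulin or saline before dissection, and nuclei were cleaned by flow sorting, with no gate named. There were 2 Insulin and 2 Saline libraries, and the deposited table places 1 library of each treatment in sequencing run 230 and 1 in run 232. The labels give no dose, route, time, age or sex, and do not say whether a library holds 1 mouse or a pool, so a p-value here reflects how these 4 libraries vary and nothing beyond them. The questions were how microglia differ from the other cell types, which parts of the insulin pathway they carry, and whether insulin changed their share or their transcripts.

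Microglia arise from yolk sac progenitors, depend on the receptor Csf1r, and survey the tissue with processes steered by purine receptors such as P2ry12. They clear debris through Fc, lectin and lipid receptors that signal through Tyrobp and Syk, release the complement protein C1q, and respond to microbial and damage signals through Toll-like receptors. In the hypothalamus they have been studied mainly for their response to fat-rich feeding, and insulin signalling in any cell runs through Insr, Irs proteins, phosphoinositide 3-kinase and Akt.

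The libraries held 8352 to 9796 annotated nuclei and 63590421 to 71391593 unique molecular identifiers (UMIs, counted molecules). Microglia numbered 134 and 138 nuclei in the Insulin libraries of runs 230 and 232, and 71 and 99 in the Saline libraries of these runs. Their nuclei summed to 371165 and 624285 UMIs in the Insulin libraries and to 399497 and 534988 UMIs in the Saline libraries. Below, 4 values in a row are in this order: Insulin run 230, Insulin run 232, Saline run 230, Saline run 232. The median microglial nucleus had 2326.5 UMIs, against 8445 in neurons, 3148 in astrocytes and 2354 in oligodendrocytes. Run and sex-linked transcripts coincide: Xist, the RNA of the inactive X, had 0, 1355, 3 and 1142 UMIs in microglia, so run and sex cannot be told apart. The Insulin and Saline libraries of run 230 shared 179 cell barcodes and those of run 232 shared 65, against 14 to 25 for the other pairs of libraries, and 1 microglial nucleus was among them.

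Every nucleus in the class had UMIs of a list of 22 microglial identity genes, some of which other types also carry. The lowest nucleus had 5 such UMIs and the median nucleus 25. At least 5 UMIs of the 6 defining markers described below were present in 85.1% of the 442 nuclei. However, 76 of the 442 nuclei (17.2%) held more UMIs of the marker lists of neurons, astrocytes, oligodendrocytes, oligodendrocyte precursor cells (OPC), endothelial, mural and ependymal cells than of the identity list, and are called mixed here. Mixed nuclei numbered 6 of 134 and 30 of 138 in the Insulin libraries, and 24 of 71 and 16 of 99 in the Saline libraries. They had a median of 11667 UMIs, against 2081.5 UMIs in the other 366 nuclei, and so supplied 22.3% and 53.5% of microglial UMIs in the Insulin libraries and 76.6% and 58.9% in the Saline libraries. Neuron markers led in 57 of the 76, oligodendrocyte markers in 9, and astrocyte and OPC markers in 5 each. Their identity-list UMIs were close to those of the other nuclei: the library medians were 29 and 26 in Insulin and 15.5 and 24.5 in Saline mixed nuclei, against 27 and 24.5 in Insulin and 18 and 27 in Saline nuclei that were not mixed. Near the line that divides them, 22 nuclei had between 0.5 and 1 times as many UMIs of other types as of the identity list, and 38 had between 1 and 2 times as many.

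**Figure D1:**
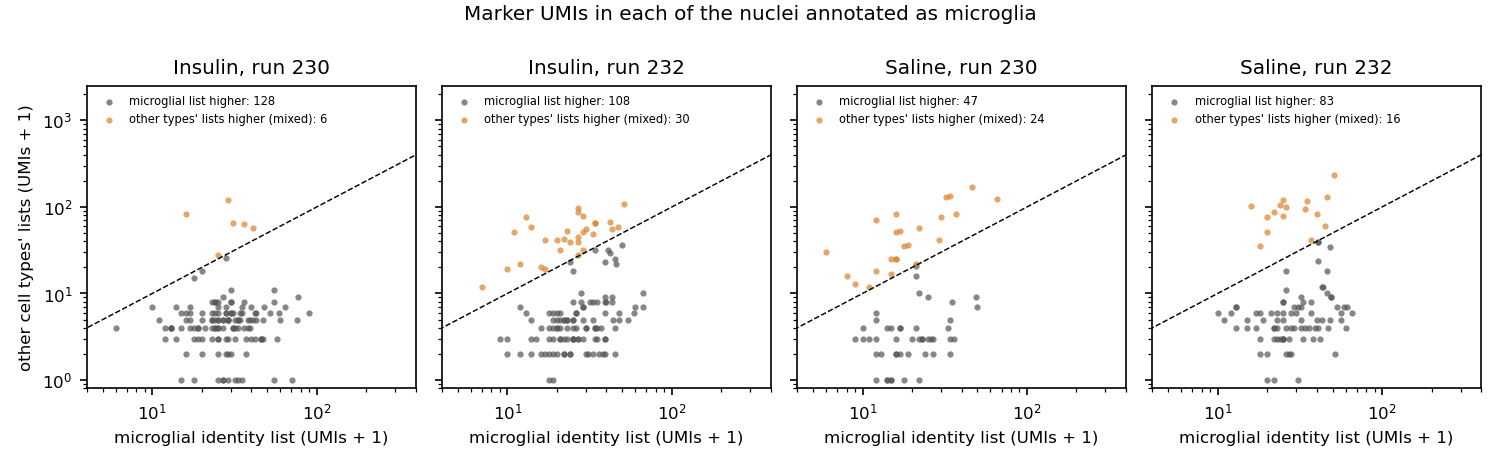
UMIs of the microglial identity list (horizontal, log axis, plus 1) and of the lists of 7 other cell types (vertical, log axis, plus 1) in each microglial nucleus, one panel per library. Points above the dashed line of equality are the mixed nuclei, 6 and 30 in the Insulin panels and 24 and 16 in the Saline panels.

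Microglial sums hold different amounts of such mixed nuclei. The share and the tests of genes are therefore given for all 442 nuclei and for the 366 without them. Other values are given for both sets or for a single set. The 8 neuron markers summed to 679, 1740, 2028 and 1983 CPM, the usual scaling of UMI counts to the total of each library, in all microglial nuclei, and to 413, 672, 278 and 523 CPM without mixed nuclei. The 22 identity genes summed to 10604, 6004, 3610 and 5632 CPM in all nuclei and to 13051, 10393, 10099 and 11568 CPM without mixed nuclei. The highest neuron and lowest identity sums were both in the Saline library of run 230. The definition of mixed nuclei used these lists, so their sums without mixed nuclei are partly set by it. Markers of endothelial cells summed to at most 30.4 CPM and those of mural cells to at most 20.6 CPM in any library.

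Among other immune cells, perivascular macrophages were represented by 1 nucleus. It lay in the Saline library of run 232 and held 40 UMIs of F13a1, 27 of Mrc1, 9 of Cd163 and 4 of Ms4a7, markers of macrophages at vessels, against 5 UMIs of P2ry12 and 0 of Tmem119 and Sall1. That nucleus had 82 UMIs of the perivascular list (Stab1 left out), and no other nucleus had more than 2. Stab1 itself, a scavenger receptor often listed for perivascular macrophages, was at 191 ± 98.5 CPM (SD, n = 4 libraries) across the class with 119, 124, 34 and 85 UMIs. The list of 12 monocyte, neutrophil and lymphocyte markers summed to 8.08, 43.2, 12.5 and 1.87 CPM, and Cd3e, Cd3d, S100a8 and Ms4a1 had 0 UMIs.

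Microglia made up a larger share of nuclei in the Insulin libraries, but 4 libraries cannot show such a difference at p under 0.05. The share of annotated nuclei was 1.60% (95% Wilson interval 1.36 to 1.90) and 1.41% (1.19 to 1.66) in the Insulin libraries and 0.749% (0.595 to 0.944) and 1.11% (0.914 to 1.35) in the Saline libraries. Both Insulin libraries lay above both Saline libraries, at 1.51 ± 0.138% against 0.931 ± 0.256% (SD, n = 2 each). The difference was 0.576 percentage points, with a two-sided exact permutation p of 0.3333, the smallest that 2 against 2 libraries allow. It was 0.855 points within run 230 and 0.297 within run 232. Without mixed nuclei the shares were 1.53% and 1.10% in Insulin and 0.496% and 0.932% in Saline libraries, a difference of 0.603 points. Among non-neuronal nuclei microglia were 5.0% and 4.23% in Insulin libraries and 2.46% and 3.42% in Saline libraries. The Wilson intervals cover counting error only and not differences in dissection or sorting between libraries.

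**Figure D2:**
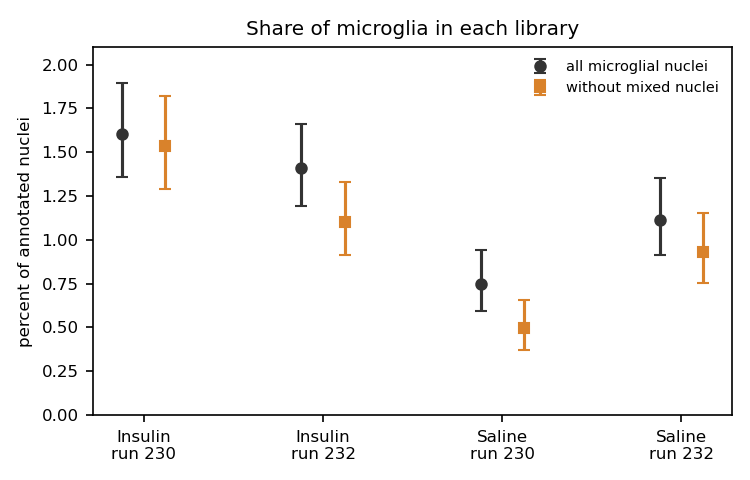
Microglia as a percentage of annotated nuclei in each library, for all microglial nuclei (circles) and without mixed nuclei (squares), with bars for the 95% Wilson interval. The 2 Insulin libraries, at 1.60% and 1.41%, lie above the 2 Saline libraries, at 0.749% and 1.11%.

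The 6 defining markers were present in every library, and their levels were more alike between libraries once mixed nuclei were left out. All 6 are on the identity list that defines mixed nuclei, so their levels without mixed nuclei are partly set by that rule. The authors' cell types rest on these same counts, so levels against other types are a description and were not tested. Counts are 3' counts without length scaling, and levels are compared within a gene only. Of 4462 genes with at least 50 CPM in microglia and UMIs in all 4 libraries, 185 (4.15%) had at least 4 times the mean CPM of the highest of the 7 other cell types, and 290 (6.5%) did so without mixed nuclei. Of the 21 identity genes with UMIs, 18 passed this fold at any level, the exceptions being Olfml3, Sparc and Cst3.

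Cx3cr1, the receptor for the neuronal chemokine fractalkine (GRCm38 chromosome 9, 119901616 to 120069879, minus strand), was at 894, 466, 428 and 523 CPM. Without mixed nuclei it was at 1092, 810, 1189 and 1068 CPM, a mean of 1039.8 ± 162 CPM (SD, n = 4), against 103 CPM in ependymal cells, the highest other type. The highest and lowest library thus differed less without mixed nuclei, and the order of the libraries was not the same. Csf1r (chromosome 18, 61100598 to 61132149, plus strand) was at 700.5, 373, 208 and 325 CPM. Without mixed nuclei its levels were 853, 686, 664 and 659 CPM, against 3.74 CPM in mural cells. Both Insulin libraries lay above both Saline libraries for Csf1r in either set of nuclei, with the Insulin library of run 230 highest in both. Such an order was present in 22.4% of 8527 tested genes in all nuclei and in 14.9% of 5745 without mixed nuclei. Ctss, a lysosomal protease (chromosome 3, 95526786 to 95556403, plus strand), was at 639, 471, 220 and 370 CPM and without mixed nuclei at 743 ± 60.7 CPM, against 9.88 CPM in mural cells. Tmem119, a membrane protein of resident microglia (chromosome 5, 113793729 to 113800516, minus strand), was at 113, 68.9, 57.6 and 72.9 CPM, and without mixed nuclei at 145 ± 20.7 CPM against 0.819 CPM in mural cells. C1qa, a chain of the complement starter C1q (chromosome 4, 136895917 to 136898803, minus strand), was at 507, 311, 133 and 204 CPM, and without mixed nuclei at 469 ± 108 CPM against 15.0 CPM in mural cells.

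P2ry12, the purine receptor that guides processes to ATP (chromosome 3, 59216272 to 59262871, minus strand), stood at 757, 549, 413 and 436 CPM, and without mixed nuclei at 896 ± 84.2 CPM. It was also at 79.7, 55.0, 118 and 62.7 CPM in neurons, the highest other type. Neurons had 67.8 P2ry12 UMIs for every Csf1r UMI, against 1.36 in microglia, and 16.9 Cx3cr1 UMIs per Csf1r UMI, against 1.43 in microglia. P2ry12 lies inside Med12l on the opposite strand, and Med12l had 621 UMIs in microglia. The counting strand is not given in the sources used here, so reads of these overlapping genes cannot be told apart. The annotated span of Cx3cr1 likewise covers Wdr48 on the other strand and Csrnp1 on its own.

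The share of nuclei with at least 1 UMI gave the same order at matched depth. After each nucleus was thinned to 1000 UMIs, which left out 2 microglial and 42 neuronal nuclei, Csf1r was found in 41.6% of microglial nuclei and in 0.0904% of neurons. Without thinning the Csf1r values were 73.3% and 1.05%. P2ry12 was found in 52.3% of thinned microglial and 7.84% of thinned neuronal nuclei, and without thinning in 80.3% and 45.3%.

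**Figure D3:**
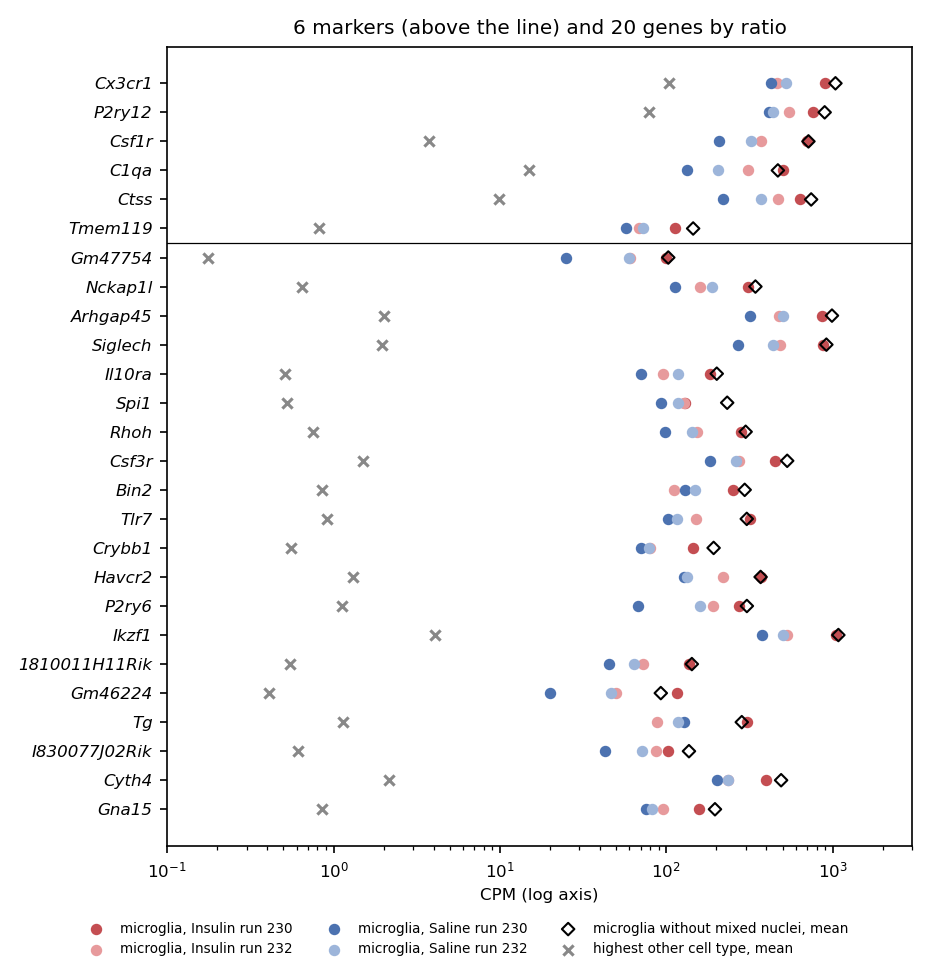
CPM (log axis) of the 6 markers (upper block) and of the 20 genes with the largest ratio to the highest other cell type (lower block). Filled points are the 4 libraries, diamonds the mean over libraries without mixed nuclei, and crosses the mean in the highest other cell type, which ranges from 0.175 CPM for Gm47754 to 103 CPM for Cx3cr1.

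The promoters of 4 identity genes are shown because they hold the purine-rich core AGGAAGT, the kind of site bound by Spi1 (PU.1), the transcription factor that macrophages need. Each is 300 bases from RefSeq on GRCm38.p6, from 250 before to 50 after the annotated start, written 5' to 3' on the gene's strand, with AGGAAGT or its reverse complement ACTTCCT in capitals. They lie at chr3:59262936-59263235 (P2ry12, minus), chr3:95526536-95526835 (Ctss, plus), chr4:136886151-136886450 (C1qb, minus) and chr4:136892865-136893164 (C1qc, minus).
P2ry12: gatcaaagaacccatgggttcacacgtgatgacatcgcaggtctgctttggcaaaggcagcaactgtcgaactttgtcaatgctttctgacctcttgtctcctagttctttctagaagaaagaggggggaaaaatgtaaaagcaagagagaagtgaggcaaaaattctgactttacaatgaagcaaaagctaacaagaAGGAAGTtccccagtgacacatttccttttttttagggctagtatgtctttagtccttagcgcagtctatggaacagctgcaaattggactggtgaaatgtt
Ctss: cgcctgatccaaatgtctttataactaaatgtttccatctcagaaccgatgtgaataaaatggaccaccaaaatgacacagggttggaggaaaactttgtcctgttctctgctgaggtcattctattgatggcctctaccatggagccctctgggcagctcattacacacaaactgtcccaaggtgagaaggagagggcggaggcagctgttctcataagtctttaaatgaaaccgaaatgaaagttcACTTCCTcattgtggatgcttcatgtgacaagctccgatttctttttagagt
C1qb: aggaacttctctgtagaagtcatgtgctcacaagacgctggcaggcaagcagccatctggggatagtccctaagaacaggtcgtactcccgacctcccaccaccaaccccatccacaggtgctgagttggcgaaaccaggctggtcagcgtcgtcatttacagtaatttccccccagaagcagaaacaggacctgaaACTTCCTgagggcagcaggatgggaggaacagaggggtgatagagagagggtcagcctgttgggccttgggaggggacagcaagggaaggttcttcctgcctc
C1qc: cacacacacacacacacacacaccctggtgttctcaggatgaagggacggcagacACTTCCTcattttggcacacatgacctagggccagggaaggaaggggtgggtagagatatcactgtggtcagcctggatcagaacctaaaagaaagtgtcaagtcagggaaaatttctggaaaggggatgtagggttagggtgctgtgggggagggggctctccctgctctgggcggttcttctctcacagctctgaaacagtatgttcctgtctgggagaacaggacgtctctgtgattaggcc
Either form of the 7 letters was present in 9.35% of 32851 promoters of the same length. It was present in 5 of the 15 identity genes with a promoter in the table (33.3%: P2ry12, Fcrls, Ctss, C1qb and C1qc), in 3 of 12 matched genes among the 20 with the largest ratio (25.0%: Havcr2, I830077J02Rik and Cyth4) and in 1 of 11 matched microglial transcription factors (9.09%). A match is a description of these letters, not of a bound site.

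The genes with the largest ratio to other types included many that are known from blood cells. Gm47754, listed by its identifier alone, led with 99.7, 60.9, 25.0 and 59.8 CPM, against 0.175 CPM in neurons. Nckap1l, a subunit of the actin-organising WAVE complex in blood cells, was at 310, 160, 113 and 189 CPM, which is 297 times its level in OPC. Arhgap45 and Rhoh, signalling proteins of blood cells, were 269 and 223 times higher than in OPC. Siglech, a sialic acid-binding lectin of microglia, was at 870, 484, 270 and 437 CPM, or 265 times its level in endothelial cells. Receptors in this group were Il10ra for interleukin 10 (227 times), Csf3r for the granulocyte factor (195 times), Tlr7 for single-stranded RNA (188 times), Havcr2, known as TIM-3 (163 times), and the nucleotide receptor P2ry6 (154 times). In all 20 genes the mean was higher without mixed nuclei. The genes were picked for low levels in other types, whose markers define mixed nuclei, so this was largely set by the selection. Thyroglobulin, Tg, was also in the group at 304, 88.1, 128 and 118 CPM, with the Insulin library of run 230 far above the other 3. Its span holds Sla, an adaptor of blood cells on the opposite strand with 159 UMIs in microglia.

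Lineage transcription factors were detected in each library. Spi1 was at 129, 128, 92.6 and 118 CPM, 223 times its level in oligodendrocytes, and Ikzf1, the lymphoid and myeloid factor Ikaros, at 612 ± 295 CPM in all nuclei and at 1083 ± 144 CPM without mixed nuclei. Runx1 averaged 1019.5 ± 144 CPM without mixed nuclei, against 19.1 CPM in mural cells. Sall1, a factor that keeps microglial identity, was at 178, 106, 70.1 and 82.2 CPM, and at 212 ± 26.6 CPM without mixed nuclei against 19.9 CPM in ependymal cells. Mef2a averaged 2089 ± 177 CPM without mixed nuclei and 269 CPM in mural cells. Irf8 was listed at 0 in every barcode of the matrix, as were Itgam, Myd88 and Adora3, together with 4383 symbols in all.

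Of receptors for growth and resting signals, Tgfbr1 averaged 1228 ± 525 CPM in all nuclei and 2147 ± 191 CPM without mixed nuclei, against 83.1 CPM in mural cells. Csf2rb was 164 times its OPC level at 33.2 ± 11.6 CPM. In the phagocytosis list, 16 of the 28 genes, counted at any level, had at least 4 times the level of every other type. The share was 4.15% in the 4462 genes above, which all had at least 50 CPM, so the sets are not alike. Mertk, a receptor for dying cells, was at 1847 ± 252 CPM without mixed nuclei but also at 790 CPM in astrocytes, and Elmo1, an engulfment adaptor, was at 3389 ± 573 CPM against 2244 CPM in oligodendrocytes. Trem2, the lipid receptor of disease-associated microglia, was at 102, 36.8, 37.5 and 82.2 CPM.

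Genes of activated or disease-associated microglia were mostly sparse at this depth. Of the 15 such genes, 14 were in the matrix, and Clec7a was not analysed here. Cst7, Itgax and Gpnmb had 0 UMIs in the class, Spp1 had 0, 1, 5 and 0, and Lpl had 1, 0, 1 and 0. At least 20 UMIs in the class were present for 5 of the listed genes. Among them were Ctsl with 197 and Cd9 with 161 UMIs, against 147 for the marker Tmem119. Apoe, a lipid carrier, was at 547 ± 187 CPM, against 4702 CPM in astrocytes. Of the cytokines, Il1b had 1 UMI in all, Tnf 0, 1, 2 and 6, and Il1a 3, 15, 7 and 17. Cxcl10, an interferon-induced chemokine, had 14 UMIs in the Saline library of run 230 and 0 in the other libraries. All 14 were in mixed nuclei. Ccl4, a chemokine, had 0 and 2 UMIs in Insulin libraries and 0 and 16 in Saline libraries. Class II antigen presentation was close to absent at this depth, with 0, 0, 1 and 0 UMIs for each of H2-Aa, H2-Ab1 and H2-Eb1 and 0, 1, 9 and 1 for Cd74. Mixed nuclei held the 1 UMI of each of H2-Aa, H2-Ab1 and H2-Eb1 and 8 of the 11 Cd74 UMIs. The interferon-responsive gene Ifit3 had 0, 5, 0 and 0 UMIs, 3 of them in mixed nuclei. Top2a, which cells express while they divide, had 19 and 11 UMIs in Insulin libraries and 0 and 0 in Saline libraries, none of them in mixed nuclei. The other 7 proliferation genes had at most 6 UMIs in a library.

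Microglia carried the insulin receptor at a level within the range of the other types. Insr (chromosome 8, 3122061 to 3279617, minus strand) was at 186, 187, 170 and 168 CPM, and without mixed nuclei at 208, 234, 257 and 218 CPM. The other types ranged from 116 CPM in neurons to 417 CPM in mural cells. Libraries of the 2 treatments did not overlap in all nuclei, by a margin smaller than their spread without mixed nuclei, where they did overlap. Both Insulin libraries were higher for 22.4% of the 8527 genes tested in all nuclei. Igf1r, the receptor for insulin-like growth factor 1, was at 401, 175, 253 and 221 CPM, against 1728 CPM in mural cells. Irs1 and Irs2, the adaptors that the receptor phosphorylates, were at 17.96 ± 5.90 and 32.7 ± 5.63 CPM in all nuclei. Mixed nuclei held 26 of the 35 Irs1 UMIs and 29 of the 65 Irs2 UMIs in the class.

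The insulin and IGF list also held genes of phosphoinositide 3-kinase signalling with a large microglial excess. The values do not show which receptors these genes serve in microglia. Inpp5d, or SHIP1, the phosphatase that removes the 5-phosphate from the lipid made by phosphoinositide 3-kinase, was at 2215, 1270, 921 and 1073 CPM and without mixed nuclei at 2774, 2268, 2677 and 2268 CPM, against 25.2 CPM in mural cells. Pik3cg, the kinase subunit driven by G protein-coupled receptors, averaged 208 ± 49.3 CPM without mixed nuclei against 0.947 CPM in OPC. Pik3ap1, an adaptor for the kinase in blood cells, averaged 297 ± 62.1 CPM against 4.68 CPM in mural cells, and Pik3r5, a regulatory subunit, 136 ± 44.7 CPM against 2.41 CPM. The share of the UMIs of each gene that came from mixed nuclei was low for these genes: 9.90% for Pik3cg, 13.7% for Inpp5d and 15.4% for Pik3ap1, against a median of 49.5% over 10889 genes with at least 20 UMIs and 15.0% over the identity list. Of the 41 genes of the insulin and IGF list, counted at any level, 4 had at least 4 times the level of every other type. The share was 4.15% in the comparison above, which took only genes with at least 50 CPM.

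Receptors of other hormones in the same list came mostly from mixed nuclei. Of the UMIs in the class, mixed nuclei supplied 95.9% for the prolactin receptor Prlr, 91.3% for the leptin receptor Lepr, 90.8% for the adaptor Grb10 and 82.1% for the growth hormone receptor Ghr. Prlr was at 8.08, 33.6, 40.1 and 63.6 CPM in all microglial nuclei and at 86.9 CPM in neurons. Without mixed nuclei it had 0, 2, 0 and 1 UMIs. Insr lay between these groups, with 41.9% of its UMIs in mixed nuclei.

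In glucose use, microglia carried Slc2a5, a fructose transporter, at 56.4 ± 13.9 CPM against 2.89 CPM in ependymal cells, and Hk2 and Hk3, hexokinases, at 185 ± 92.5 and 40.9 ± 9.88 CPM, against 6.4 CPM for Hk2 in astrocytes and 0.936 CPM for Hk3 in neurons. Slc2a1, the glucose transporter of the vessel wall, was at 17.7 ± 5.0 CPM, against 1127 CPM in the nuclei that the authors annotate as mural cells.

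No gene passed the threshold between Insulin and Saline microglia. With edgeR's quasi-likelihood test, run as a block and Benjamini-Hochberg adjustment, 0 of 8527 genes passed an adjusted p of 0.05 (0.0% called), 213 had an unadjusted p under 0.05, and the smallest adjusted p was 0.998. DESeq2 also called 0, with 57 at an unadjusted p under 0.05. Without mixed nuclei edgeR called 0 of 5745 genes, of which 227 had an unadjusted p under 0.05, and 0 passed in DESeq2, with 10 under it. The fit leaves 1 residual degree of freedom, and values below are therefore given as levels.

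The medians of the microglial lists lay above 0 in all nuclei, mostly through run 230, and near 0 or below it for most lists without mixed nuclei. Of 21 tested identity genes, 20 had a log2 change above 0, with a median of 0.60, against 52.2% of all genes and a median of 0.02. The identity median was 1.45 within run 230 and -0.07 within run 232. Without mixed nuclei 11 of 21 were above 0, against 51.7% of all genes, and the median was 0.01. For 14 tested transcription factors the counts were 13 above 0 in all nuclei and 5 without mixed nuclei, with medians of 0.57 and -0.07. Within runs the median in all nuclei was 1.17 in run 230 and 0.06 in run 232. Phagocytosis genes gave 23 of 25 with a median of 0.43 in all nuclei, and 11 of 25 with a median of -0.08 without mixed nuclei. Their median in all nuclei was 1.18 within run 230 and -0.07 within run 232. The 8 neuron markers had a median of -0.44 in all nuclei, with 2 above 0. Without mixed nuclei 5 of them were tested, 3 were above 0 and the median was 0.34. As given above, mixed nuclei supplied 22.3% and 53.5% of the UMIs in Insulin libraries and 76.6% and 58.9% in Saline libraries. The definition of mixed nuclei uses the identity and neuron lists, so their medians without mixed nuclei are partly set by it, and the part of this share in the list medians was not tested.

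**Figure D4:**
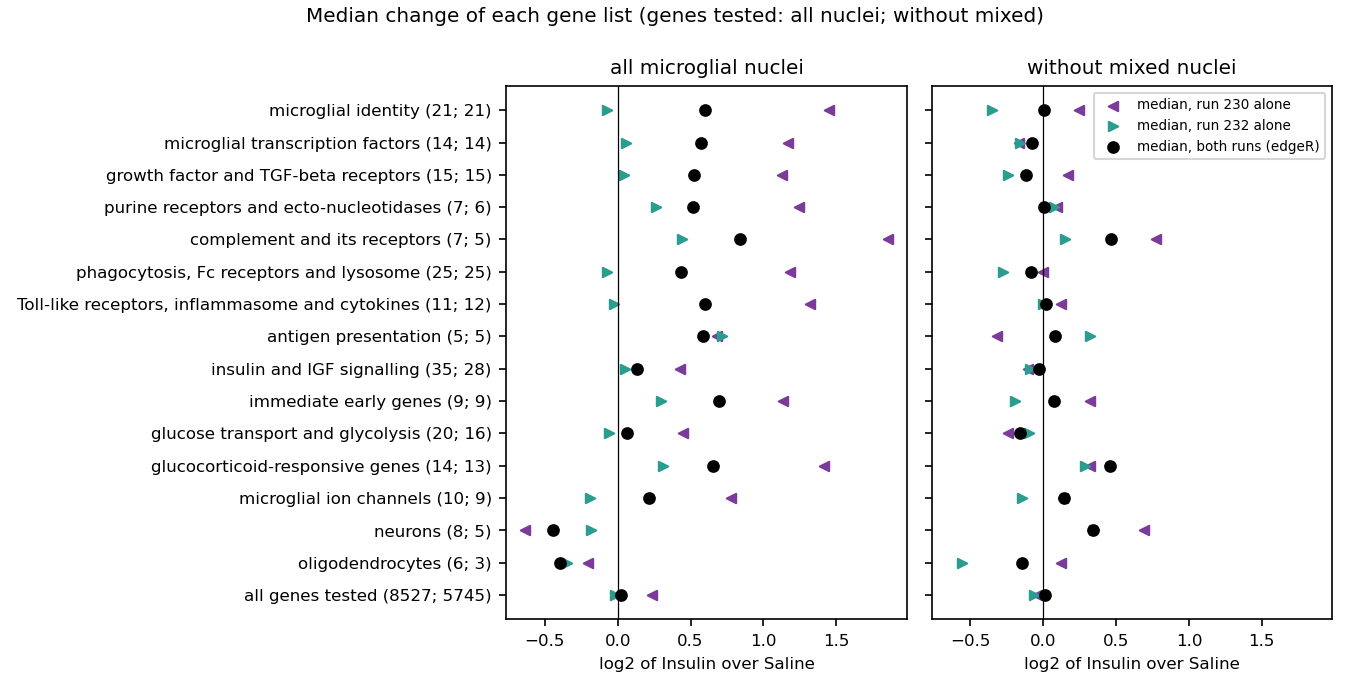
Median log2 change of Insulin over Saline for each gene list, in all microglial nuclei (left) and without mixed nuclei (right). Circles are the edgeR estimates with run as a block and triangles the change within each run alone, and the identity list stands at 0.60 on the left and 0.01 on the right.

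Complement genes and glucocorticoid-responsive genes had a median above 0 without mixed nuclei. C1q marks synapses and debris for removal. C1qa was at 610 and 479 CPM in Insulin libraries without mixed nuclei, against 353 and 432 CPM in Saline libraries. C1qb was at 600 and 462 CPM in Insulin against 343 and 377 CPM in Saline libraries, a log2 change of 0.55 ± 0.22 (SE). C1qc was at 579 and 510 CPM in Insulin against 311 and 450 CPM in Saline libraries. For all 3 genes, which are neighbours on chromosome 4, both Insulin libraries lay above both Saline libraries. This held for 14.9% of the 5745 genes tested without mixed nuclei, and the adjusted p in edgeR was 0.999 for each. The change of C1qb in microglia minus that in all other nuclei was 0.04 ± 0.46 on the log2 scale in all microglial nuclei and -0.34 ± 0.42 without mixed nuclei. For C1qa these differences were -0.08 ± 0.36 and -0.68 ± 0.29, and no difference of these passed the threshold in edgeR. The 5 tested complement genes had a median of 0.46, with 0.78 within run 230 and 0.15 within run 232. Of these, 4 had a log2 change above 0 and 1 below it, at -0.60. In 3 both Insulin libraries lay above both Saline libraries and in 1 below, against 14.9% and 15.5% of all 5745 genes. C1qa, C1qb and C1qc are among the 5 and also on the identity list. Their values and this median without mixed nuclei are thus partly set by the definition of mixed nuclei.

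Of 13 tested glucocorticoid-responsive genes, 10 had a log2 change above 0 without mixed nuclei and 6 had both Insulin libraries above both Saline libraries, with a median of 0.46 and medians of 0.32 within run 230 and 0.29 within run 232. Over all 5745 genes the shares were 51.7% above 0 and 14.9% with both Insulin libraries higher. The 5 tested neuron markers also had a median above 0 in the same nuclei, at 0.34, and their part in the complement and glucocorticoid values was not tested. Fkbp5, a chaperone of the glucocorticoid receptor, was at 2226 and 1568 CPM in Insulin and 1328 and 1418 CPM in Saline libraries, a log2 change of 0.46 ± 0.16. Mt1, a metallothionein, was at 135 and 186 CPM in Insulin and 53.5 and 127 CPM in Saline libraries, a log2 change of 0.83 ± 0.36. Both genes separated the treatments and neither passed, at an adjusted p of 0.999 in edgeR. The receptor gene itself, Nr3c1, was at 264 and 172 CPM in Insulin and 214 and 214 CPM in Saline libraries. In all nuclei 13 of 14 genes were above 0, with a median of 0.66.

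**Figure D5:**
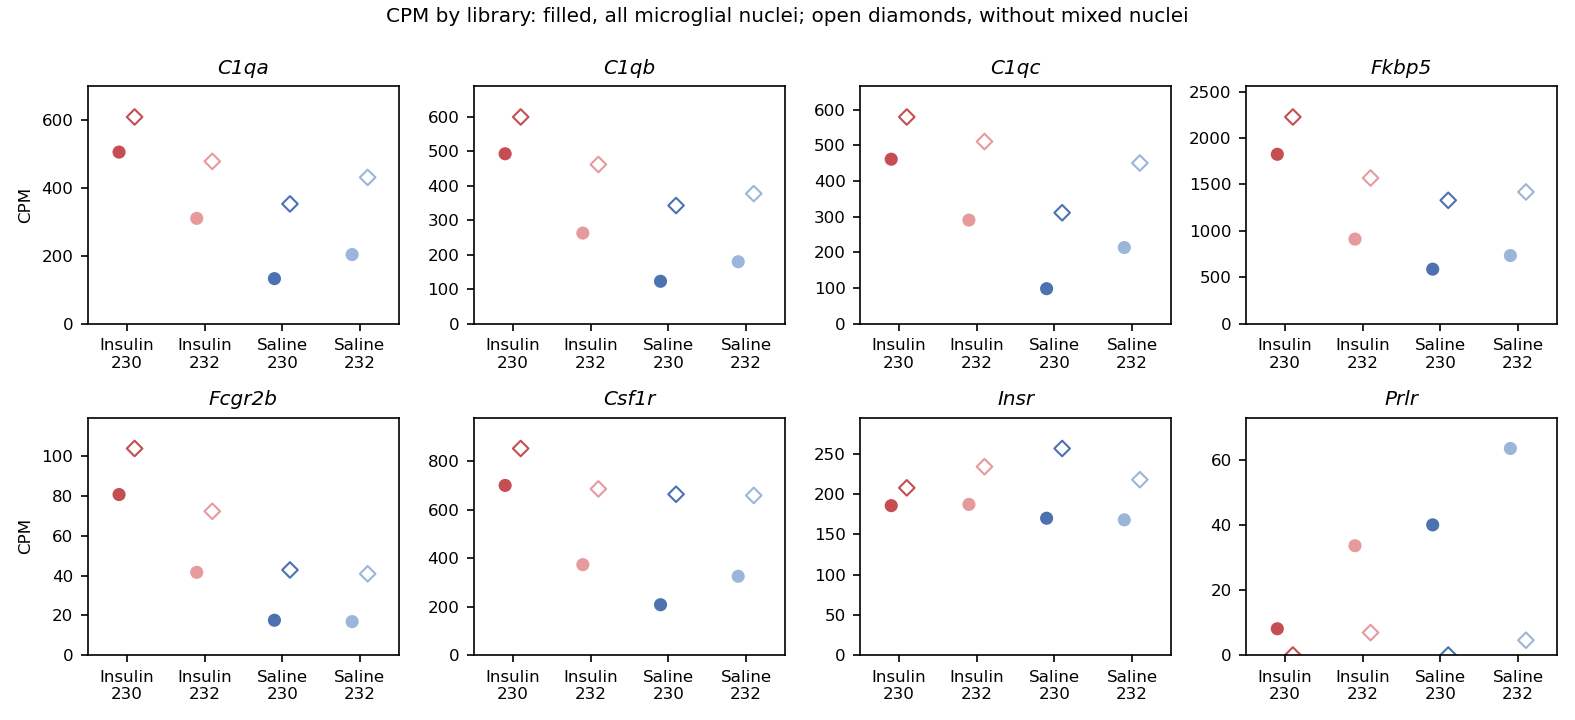
CPM by library (horizontal axis, treatment over run) for 8 genes, in all microglial nuclei (filled) and without mixed nuclei (open diamonds). Without mixed nuclei the Insulin libraries lie above the Saline libraries for C1qa, C1qb, C1qc, Fkbp5, Fcgr2b and Csf1r, as for 14.9% of 5745 genes tested. They overlap for Insr and for Prlr, which falls to between 0 and 6.89 CPM.

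Single genes with the smallest p were low in counts. UMI counts here and in the next paragraph are not scaled to the library totals. Without mixed nuclei these totals were 288397 and 290094 UMIs in Insulin libraries and 93372 and 220007 UMIs in Saline libraries. Rgs1, a regulator of G protein signalling in immune cells, had 17 and 23 UMIs in Insulin libraries and 0 and 3 in Saline libraries, a log2 change of 3.54 ± 0.90, and 16 and 14 against 0 and 3 UMIs without mixed nuclei. Ms4a6d, a membrane protein of macrophages, had 41 and 42 UMIs in Insulin against 8 and 16 in Saline libraries. Nlrp1a, an inflammasome sensor, had 30 and 27 UMIs in Insulin against 4 and 10 in Saline libraries. Fcgr2b, the inhibitory Fc receptor, was at 80.8 and 41.6 CPM in Insulin against 17.5 and 16.8 CPM in Saline libraries, a log2 change of 1.65 ± 0.51, and at 104 and 72.4 against 42.8 and 40.9 CPM without mixed nuclei. Pld4, a nuclease of the endosome, had 40 and 48 UMIs in Insulin against 6 and 22 in Saline libraries. The adjusted p was 0.998 in edgeR for each, and both Insulin libraries were above both Saline libraries for each, as for 22.4% of all 8527 genes. Of the other genes among the 10 highest, Gm28928 had 72 and 80 UMIs in Insulin and 21 and 28 in Saline libraries, but 0 and 40 in Insulin and 1 and 2 in Saline libraries without mixed nuclei.

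The genes lower in Insulin libraries with the smallest p included markers of other cells. Nefm, a neurofilament protein of neurons, had 1 and 4 UMIs in Insulin against 14 and 26 in Saline libraries, and Megf11, a receptor that stood at 706 CPM in OPC, had 14 and 27 against 60 and 58 UMIs. Without mixed nuclei these counts were 1 and 2 in Insulin against 2 and 10 in Saline libraries for Nefm, and 2 and 5 against 2 and 13 for Megf11. In this set of nuclei the lower genes with the smallest p included Il6st, the shared signal chain of interleukin 6 receptors, with 17 and 17 UMIs in Insulin against 16 and 36 in Saline libraries. Its log2 change was -1.47 ± 0.36, with an adjusted p of 0.999 in edgeR. Il6 itself was at 24.3 and 24.1 CPM in Insulin against 75.0 and 54.5 CPM in Saline libraries without mixed nuclei, on 7 to 12 UMIs a library. The inflammasome gene Nlrp3 was at 38.1 and 31.0 against 85.7 and 59.1 CPM in the same nuclei. Across the Toll-like receptor, inflammasome and cytokine list, however, 6 of 12 tested genes were above 0 and the median was 0.02. The higher genes with the smallest p without mixed nuclei included Fam155a, with 13 and 156 UMIs in Insulin against 3 and 20 in Saline libraries. Its CPM in these nuclei overlapped between treatments.

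Genes of the insulin pathway were split between directions. Of 35 tested genes, 22 had a log2 change above 0 in all nuclei with a median of 0.13, and 12 of 28 without mixed nuclei with a median of -0.03. Over all genes the share above 0 was 52.2% in all nuclei and 51.7% without mixed nuclei. Insr had a log2 change of 0.06 ± 0.40 in all nuclei and -0.04 ± 0.28 without mixed nuclei. Pik3r1, the regulatory subunit that binds the phosphorylated Irs proteins, was at 784 and 834 CPM in Insulin against 578 and 673 CPM in Saline libraries without mixed nuclei, a log2 change of 0.40 ± 0.17 with an adjusted p of 0.999 in edgeR. Immediate early genes were too sparse to describe singly: of 33 genes, 9 were tested, Fos had 2, 0, 1 and 1 UMIs, and the median of the tested genes was 0.08 without mixed nuclei. Glucose transport and glycolysis genes had 4 of 16 above 0 without mixed nuclei, against that 51.7%, and a median of -0.16.

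Whether the insulin change of a gene in microglia differed from that in all other annotated nuclei was tested as an interaction. It called 0 of 8527 genes in edgeR (0.0%), with 336 at an unadjusted p under 0.05, and 0 in DESeq2 with 131. Without mixed nuclei it called 0 of 5745 in edgeR, of which 301 had an unadjusted p under 0.05, and 0 in DESeq2, with 70 under it. Among the 10 smallest p in all nuclei were Nefm, Gm28928 and Oxt, the oxytocin precursor of neurosecretory neurons, with 36 and 22 UMIs in Insulin and 3 and 122 UMIs in Saline microglia.

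Few genes were called between runs, in a fit with 1 residual degree of freedom, and genes not called can also differ. Run 232 over run 230 called 4 of 8527 genes in edgeR (0.0469%): Gm44511 and Tsix rose and the Y-linked Uty and Eif2s3y fell, each with an adjusted p of 0.0447. Gm44511 had 5, 190, 4 and 196 UMIs in microglia and was at 8.05, 339, 7.0 and 368 CPM in all other nuclei, so the same step was present outside microglia. Xist, at 0, 2170, 7.51 and 2135 CPM in microglia, was not among the 4 genes called. Without mixed nuclei 13 of 5745 genes were called (0.226%), 10 higher and 3 lower in run 232. These included Spag5, a spindle protein, with 8, 108, 6 and 101 UMIs in all microglial nuclei, Malat1 with a log2 change of 0.21 ± 0.03, Son and Lysmd4, and the neuronal genes Opcml, Fam155a and Lrrc4c. Without the 1 nucleus that shares its barcode with another library, 0 of 8520 genes were called in all nuclei, with a smallest adjusted p of 0.0501 and 171 at an unadjusted p under 0.05.

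The spread of a gene between nuclei of the same library was taken as the ratio of the variance between nuclei to that of counting alone, in the library where it was lowest. Malat1, a nuclear RNA of most cells, led with 25.9, ahead of Lsamp with 14.4, Meg3 with 14.3 and Nrxn3 with 10.9, genes of neurons. The median of 4466 genes was 1.02. Without mixed nuclei the leading values were 15.9 for Malat1, 5.64 for Pcdh9, 4.33 for Nkain2 and 3.92 for Csmd3.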

How the data were processed

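Nuclei were assigned to libraries, runs and cell types by the authors' deposited annotation. The deposited values are raw UMI counts per gene and barcode, and the submitters' processing notes name Cell Ranger and GRCm38. The gene annotation, the counting strand and the treatment of reads within introns are not given in the sources used here. The matrix held 41156 barcodes, none under 500 UMIs, and 31053 gene symbols. Of 36534 annotated nuclei, 11 had no barcode of the same spelling, and 4633 barcodes had no annotation. The authors' class of doublets was left out of the other types, and no further doublet caller was run.

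Counts of microglial nuclei were summed per library. Insulin was tested against Saline with edgeR 4.0.16 (quasi-likelihood, TMM, filterByExpr with a minimum count of 10 and a total of 15, run as block) in R 4.3.3, with Benjamini-Hochberg adjustment and a threshold of 0.05. The interaction with all other annotated nuclei and the run term used the same test. Within-run log2 ratios used a prior count of 0.5. DESeq2 1.42.0 was an alternative, with other normalization, other filters, each library left out, and other sets of nuclei. The steps were tested on simulated data. Levels are CPM per library. Tables and figures used Python 3.11.15, pandas 2.3.3, scipy 1.17.1 and matplotlib 3.10.9. Genes named are the 6 markers, the 20 with the largest ratio to the highest other type, the 10 with the smallest p per direction, list members and the genes with the largest spread between nuclei, and further list members named singly were picked with their values known. The members and lists were chosen with earlier results of these data known. The mixed-nucleus rule was part of the design for the insulin test and was extended to other results after seeing the data. The deposited table pairs libraries by run. The correlation of same-run deviations from treatment means was -0.09 over 8527 genes and 0.19 over 5745 genes without mixed nuclei. Values of some genes are not reported here.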

Additional observations from a re-analysis of the deposited data

Results flagged for a closer look

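Among the 4 libraries taken as 1 set, some single libraries lay apart from the other 3, and chance does this in about 1 of 20 such sets. The comparison was made for 54 sets, and 6 stood out. Without mixed nuclei, the Insulin library of run 230 had Csf1r at 853 CPM. That of run 232 had Csf3r at 472 CPM in the same nuclei. Crybb1, a crystallin gene, reached 145 CPM in Insulin run 230 in all nuclei, and 268 CPM in Saline run 230 without mixed nuclei. P2ry6 reached 193 CPM in Saline run 230 without mixed nuclei. Cyth4, an exchange factor for Arf proteins, reached 396 CPM in Insulin run 230 in all nuclei.

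Barcodes outside the named cell types also carried microglial markers. At least 5 UMIs of the 6 markers were present in 2.84% of the 423 barcodes that the authors call doublets, in 1.16% of the 1116 that they leave unassigned and in 3.69% of the 4633 that they do not annotate. The same count was reached by 85.1% of microglial nuclei and 1.97% of neurons. These barcodes enter no microglial value here.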

How the results depend on the processing

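Gm44511, the called gene that was followed through the alternatives, was higher in run 232 in each of them, but list medians, which carry no test, changed sign. Without mixed nuclei the median log2 change turned to -0.07 for transcription factors, against 0.57, to -0.08 for phagocytosis, against 0.43, to -0.03 for the insulin list, against 0.13, and to 0.34 for neuron markers, against -0.44. No paired analysis by the labels' replicate number was possible because the deposited annotation names libraries by run and not by that number, so run served as the block. Without that replicate block 0 genes passed between Insulin and Saline in all nuclei and 0 without mixed nuclei. Without the low-count filter 4 genes passed, Rgs1 and Top2a higher and Nefm and F13a1 lower in Insulin libraries, and F13a1 rests mostly on the perivascular nucleus. Leaving out 1 library gave 0 genes in all nuclei and 0 to 15 without mixed nuclei, with 15 when the Insulin library of run 230 was left out. The interaction gave 0 to 1042 genes, with 1042 without the Insulin library of run 232. A lone library is assumed there to vary like the others. The run difference, 4 genes, became 26 without the low-count filter, 12 without nuclei of 2 or more perivascular UMIs, 7 when Stab1 was left out of that list, 13 without mixed nuclei, 15 without nuclei over 4000 UMIs, 1 without mixed nuclei in DESeq2, and 0 without the nucleus with the shared barcode. It was 0 to 1375 with 1 library left out: 412 without the Insulin and 1375 without the Saline library of run 230, and 0 without either library of run 232. The cause was not tested. The share difference was 0.394 to 0.757 percentage points with 1 library left out. Library sizes of all annotated nuclei moved the median log2 change of all genes to 0.30, against 0.02. With 71 to 138 nuclei a library, many genes rest on few UMIs.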
